A study of Mus musculus with 6 samples.

Results

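The genes described here are 51 genes of mitosis, the spindle and the kinetochore, taken by name from a list and looked up in a table of 16854 genes measured in differentiating mouse muscle cells. All 51 were found, and all 51 passed the filter on low values, which 16245 genes passed. The list runs from the kinases and cyclins that start mitosis, through the spindle checkpoint, kinetochore, kinesins and condensin, to the factors that end mitosis and the transcription factors that switch these genes on. Measured values did not enter the rule, but the list was drawn up with earlier results of these data known.

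C2C12 is a mouse myoblast line that stops dividing and forms myotubes by fusion when serum is withdrawn. The control group held 3 libraries of C2C12 cells with a scrambled short hairpin RNA, and the knockdown group 3 libraries of C2C12 cells with a stable hairpin targeting Adamtsl2, a secreted glycoprotein of the extracellular matrix. Cells of both groups had spent 3 days in differentiation medium with 2% horse serum, that is, until day 3. The labels do not say whether each group was a clone or a pool, or whether its libraries came from separate cultures, so p-values measure the spread between these libraries, which may be technical. Loss of Adamtsl2 and any off-target action of the hairpin, or a difference between the cell lines unrelated to it, cannot be told apart. Adamtsl2 (GRCm38 chromosome 2, 27079379 to 27108981, plus strand) itself was at a normalised count of 1325, 1266 and 1307 in the control libraries and 23.2, 21.7 and 7.83 in the knockdown libraries, a log2 change of -6.26 ± 0.41 (SE).

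In dividing cells, most genes of this list are transcribed in G2 and M phase. Their promoters often carry a CHR element, the cell cycle genes homology region, together with CCAAT boxes bound by the factor NF-Y. In resting cells the MuvB core with p130 and E2F4, the DREAM complex, holds such genes down, and in cycling cells MuvB with B-MYB (Mybl2) and then FOXM1 turns them on. Myoblasts shut the programme off as they withdraw from the cycle, and many of the proteins are destroyed at the end of each mitosis by the anaphase-promoting complex.

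The third knockdown library stood apart from the first and second, and the main counts and the values of some genes are also given without it. Genes given once can change as well, such as Spc24, with a log2 change of -3.41 with it and -3.78 without it. Across genes, its log2 values had Pearson correlations of 0.917 and 0.920 with those libraries, which correlated at 0.996 with each other. Malat1, a nuclear noncoding RNA, took 2.83% of its reads against 0.302 to 0.515% elsewhere. The 6 libraries held 37346439 to 50329438 recovered reads, and the fewest reads behind any member value were 24, for Cdc25c in knockdown library 1. The 8 muscle markers listed, among them Myod1, Myog, Des and Ckm, were all in the table and summed to 668407 to 692787 in control and 8404 to 9940 in knockdown libraries. Of these 8, 7 were lower in the knockdown, and Myf5, an early determination factor, was higher (0.47 ± 0.13, adjusted p = 0.025, limma, and up to 0.10 with 1 library left out). Of 5 epithelial markers, 3 were in the table, summing to 72.2 to 80.8 in control and 1951 to 2722 in the knockdown, nearly all of it Krt14, while Krt8 was lower (-2.90 ± 0.53) and Cdh1 did not pass. Of 5 fibroblast markers, 4 were in the table and summed to 459914 to 487266 against 171576 to 381300, nearly all of it Col3a1, which did not pass (-0.81 ± 0.44). Ly6a was at 74.1, 84.6 and 72.2 against 15830.0, 16565 and 24681, and Pdgfra and Dpt did not pass. Without knockdown library 3, Pdgfra was called higher (0.89, adjusted p = 2.9e-06, limma) and Col3a1 lower (-0.38, adjusted p = 0.0018, limma). Summed macrophage markers (3 of 5) were at 73.0 to 110.2 against 106 to 187, with Lyz2 listed at 0 in control library 2, and summed endothelial markers (2 of 5) at 6.32 to 6.65 against 18.2 to 90.5. Most of the 90.5, in knockdown library 3, was Pecam1, at 68.2 there against 4.97 and 2.51 in knockdown libraries 1 and 2. Pecam1 did not pass the filter on low values and was not tested. Tek and Lyz2 were called higher in the knockdown, from very low control values. Tek was at 2.18, 2.53 and 4.75 against 13.3, 20.9 and 22.4, and Lyz2 at 2.18, 0 and 1.90 against 42.3, 42.7 and 62.6. Cd68 and Csf1r did not pass. Csf1r was called lower without knockdown library 3 (-2.06, adjusted p = 1.3e-04, limma). Summed muscle, epithelial, fibroblast and endothelial markers did not overlap between the groups and macrophage sums did, and their part in the results below was not tested. In bulk RNA, fewer dividing cells and less RNA per cell cannot be told apart.

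Every role held mitotic genes that were lower in knockdown cells, though of condensin and Top2a only 3 of 6 were. Of the 51, 44 fell, 0 rose and 7 did not pass the test at an adjusted p under 0.05 (limma, Benjamini-Hochberg over all genes tested), where 23.5% of all genes tested were lower and 21.7% higher. On the log2 scale of the fit, a fall of at least 2-fold was called for 43 members against 16.5% of all genes, and of at least 4-fold for 32 members against 8.8%. By the ratio of group means these were 43 and 29 members. The median log2 change of the members was -2.22, and that of all genes tested was -0.0013. In 46 members all 3 knockdown values lay below all 3 control values, which held for 32.7% of all genes, and in 0 members they lay above, as they did for 30% of all genes. Summed over members, the normalised counts were 46433, 47494 and 46489 in control and 13355, 13767 and 18754 in the knockdown, or 0.0972 to 0.101% and 0.0326 to 0.0420% of reads. Smc4 alone made most of the excess of the third knockdown library: without it the knockdown sums were 10652, 10830.5 and 11526.

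With knockdown library 3 left out, 49 members fell, 1 rose and 1 did not pass, where 39.9% of all genes were lower and 38.6% higher. The median was then -2.32. Counts from other tests were close to those of limma: edgeR on recovered reads called 43 members lower and 0 higher, against 22% and 23.2% of all genes, and DESeq2 called 44 and 0, against 25.8% and 27.2%. With edgeR and without the third knockdown library, 49 were lower and 1 higher, against 39.8% and 39.9% of all genes. The authors' deposited table had 44 members lower and 0 higher at an adjusted p under 0.05, against 25.2% and 26.5% of its genes.

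**Figure D1:**
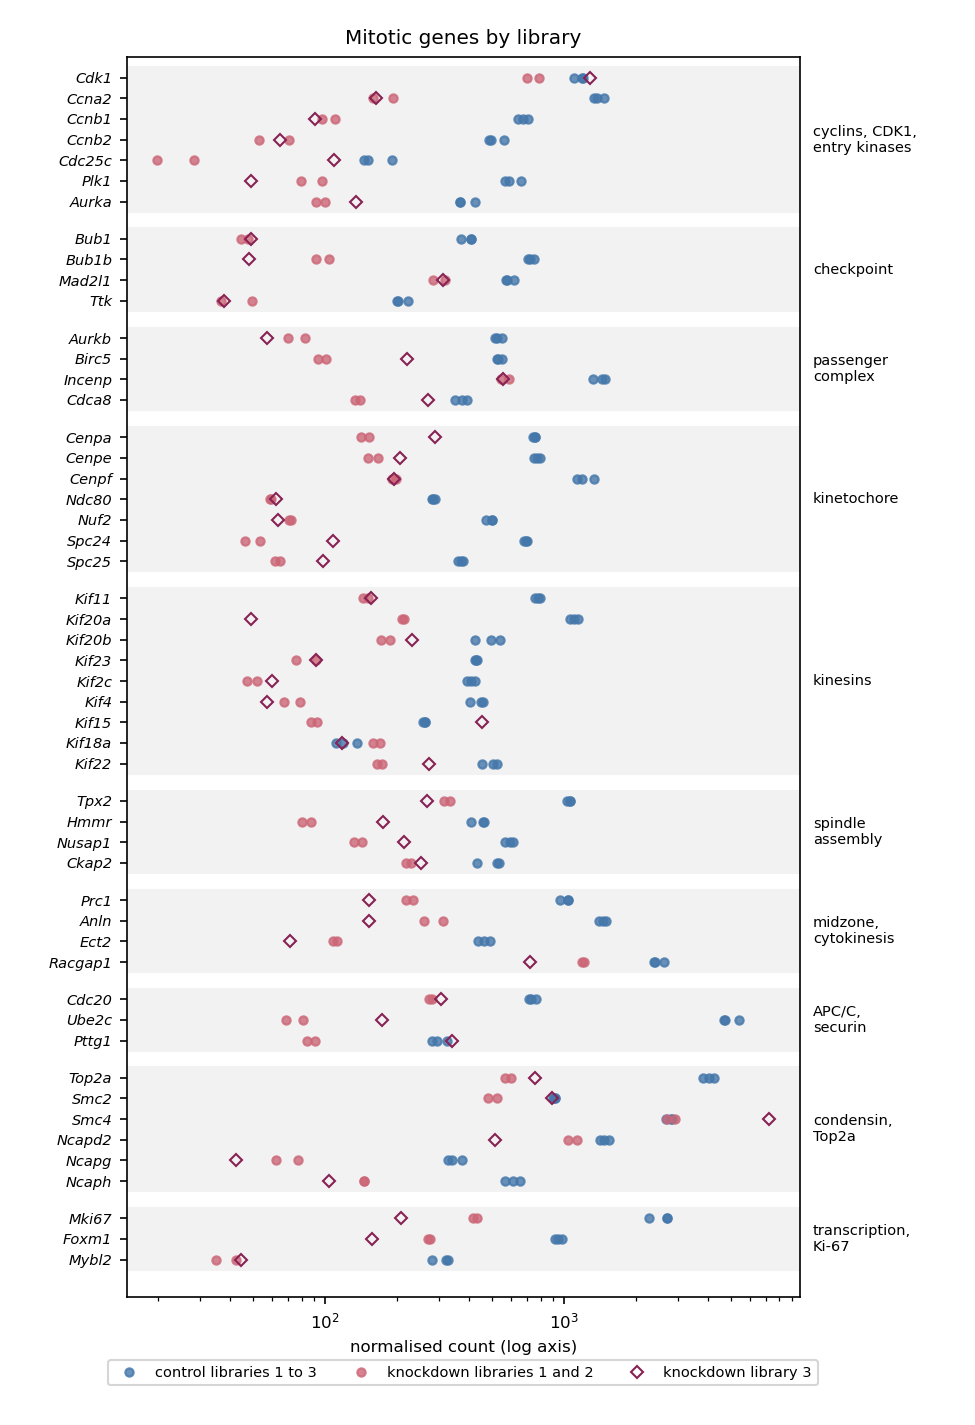
Normalised count (log axis) of each of the 51 mitotic genes in the 3 control libraries (blue), knockdown libraries 1 and 2 (red) and knockdown library 3 (open diamonds), ordered by role. In 46 genes every knockdown point lies left of every control point. The groups overlap for Cdk1, Kif15, Kif18a, Pttg1 and Smc4.

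The promoters of some members show the motifs by which this gene class is known, and 5 of them are printed here to show a gene with many matches, genes with a CHR match and a CCAAT match each, a gene with such matches that did not pass the test, and a gene with none that fell. Each run gives the 150 bases before the annotated start, read 5′ to 3′ on the gene's strand, from RefSeq promoters on GRCm38.p6. They were chosen, with their values known, among members with no annotated exon in those bases. Capitals mark a CHR-type match (TTTGAA or TTCGAA, or TTCAAA, which is TTTGAA on the other strand; TTCGAA reads alike on both and was counted once) and a CCAAT box (CCAAT, or ATTGG on the other strand). Top2a lies at chr11:99024190-99024339 (minus strand), Mki67 at chr7:135716380-135716529 (minus), Kif11 at chr19:37376232-37376381 (plus), Smc2 at chr4:52439071-52439220 (plus) and Nuf2 at chr1:169531465-169531614 (minus).
Top2a: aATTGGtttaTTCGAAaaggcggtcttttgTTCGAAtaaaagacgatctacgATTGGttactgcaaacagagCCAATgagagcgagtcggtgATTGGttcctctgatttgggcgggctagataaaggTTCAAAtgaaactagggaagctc
Mki67: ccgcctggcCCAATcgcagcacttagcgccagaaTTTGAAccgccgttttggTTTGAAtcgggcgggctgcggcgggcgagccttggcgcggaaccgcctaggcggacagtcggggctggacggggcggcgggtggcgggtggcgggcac
Kif11: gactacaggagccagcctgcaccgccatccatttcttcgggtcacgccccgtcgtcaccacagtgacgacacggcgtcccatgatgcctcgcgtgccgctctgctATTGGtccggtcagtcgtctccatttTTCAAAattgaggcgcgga
Smc2: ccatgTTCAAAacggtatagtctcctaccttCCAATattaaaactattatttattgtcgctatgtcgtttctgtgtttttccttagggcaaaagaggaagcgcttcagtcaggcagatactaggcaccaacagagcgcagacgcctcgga
Nuf2: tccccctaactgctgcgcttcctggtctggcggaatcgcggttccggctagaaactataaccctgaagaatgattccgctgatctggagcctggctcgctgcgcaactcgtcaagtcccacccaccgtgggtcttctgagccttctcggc
Top2a, whose product untangles sister DNA, holds 3 CHR-type and 4 CCAAT matches in these bases. Mki67, the proliferation marker Ki-67, holds 2 CHR-type matches and 1 CCAAT match, and Kif11, the motor that pushes spindle poles apart, 1 of each. Smc2, a condensin subunit that did not pass the test, also holds 1 of each, and Nuf2, a kinetochore gene that fell, holds none. A match is a description of letters and not a shown binding site.

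Of the 51 members, 42 had an entry in the promoter table, a window of 300 bases from 250 before to 50 after the start. The starts are those of RefSeq. For Kif4 and Mad2l1, the farthest, they lie 328 and 169 bases from the nearest GENCODE start, so matches there depend on the annotation. No entry was matched for Ccna2, Cdc25c, Aurkb, Incenp, Spc24, Kif20a, Tpx2, Smc4 and Foxm1. Searched on both strands, a CHR-type match was found in 32 of 42 members (76.2%), against 21.7% of the 27025 genes of that table and 16.5% of the 10945 tested genes with an entry. A CCAAT match was found in 29 members (69.0%), against 41.1% and 42.9%. Both were found in 27 members (64.3%), against 9.65% and 8.15%, and neither in 8. In 1 member a CHR-type match and a CCAAT match shared bases. A CHR-type match beginning within 40 bases of the start, a distance chosen after the positions were seen, was present in 28 of 42 members (66.7%) and in 5.25% of all genes of the table.

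Members fell both with and without the motif. Those with a CHR-type match were lower in 28 of 32 cases, with a median log2 change of -2.31, and those without in 8 of 10, with a median of -2.10. Of the 6 members with an entry that did not pass, 4 held a CHR-type match: Cdk1, Kif15, Smc2 and Ncapd2. Outside the members, 29.8% of the 865 tested genes with both motifs were lower, against 24.7% of the 5332 with neither. The shares called higher were 23.8% and 22.3%, and the median log2 changes were -0.0884 and -0.0255. These shares are descriptions, with no test.

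**Figure D2:**
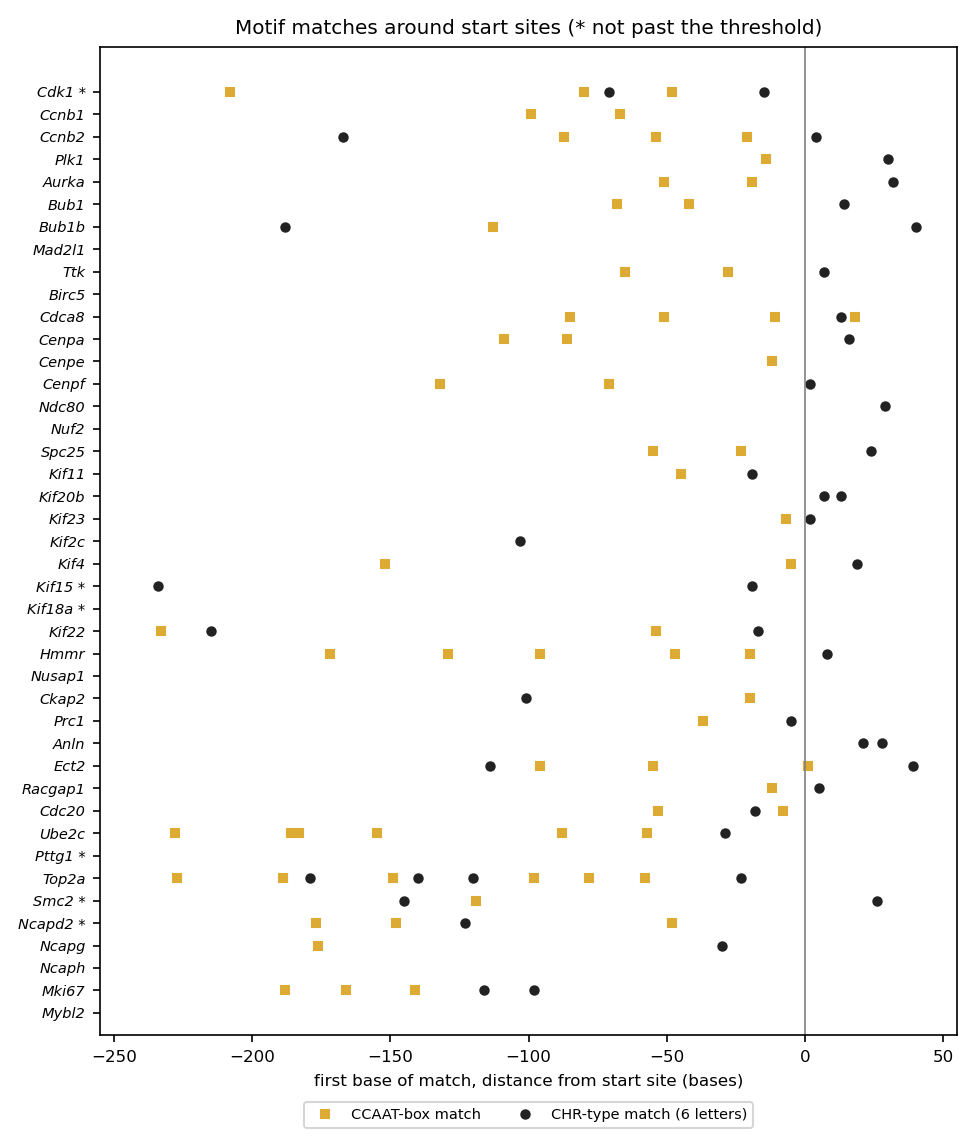
Position of each CCAAT match (squares) and CHR-type match (circles) relative to the annotated start (0, grey line) in the 42 members with a promoter entry, in bases. CHR-type matches begin within 40 bases of the start in 28 genes. Asterisks mark the 6 genes that did not pass the test.

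Among the cyclins and entry kinases, 6 of 7 fell, with a median log2 change of -2.76, and 7 fell without knockdown library 3. Ccna2, cyclin A2, which carries cells from S phase into mitosis, was at 1335, 1470.2 and 1376 in control and 158, 193 and 164 in the knockdown. The groups were far apart and both were tight, a log2 change of -3.02 ± 0.14 (adjusted p = 3.1e-05, limma). In the text, ± is the SE, with n = 3 libraries on each side. Changes given without knockdown library 3 rest on the 3 control libraries and on knockdown libraries 1 and 2 only. The mitotic cyclins, which activate CDK1, behaved alike: Ccnb1 was at 707, 647 and 673 against 110.3, 97.0 and 90.5, a log2 change of -2.76 ± 0.15. Ccnb2 was at 496, 489 and 562 against 53.1, 71.1 and 64.8, a log2 change of -3.02 ± 0.18. Ccnb1 has near-identical pseudogene copies, among them Ccnb1-ps at 99.2% identity over 1287 bases, so its counts could be split or merged with theirs. Ccna2 shares 12.5% of its exonic bases with Exosc9 on the opposite strand, which was also lower (-1.14 ± 0.11).

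Cdk1 (GRCm38 chromosome 10, 69335146 to 69352938, minus strand), the kinase that these cyclins activate, did not pass the test. Its values were 1188, 1105 and 1206 in control and 701, 790.5 and 1291 in the knockdown. Knockdown libraries 1 and 2 lay below every control and library 3 above every control, and the log2 change of -0.38 ± 0.24 did not pass (adjusted p = 0.25). Without the third library it was -0.65 (adjusted p = 1.8e-05), still smaller than that of its cyclins. Per kilobase of exon, Cdk1 was 13th of the 51 in control and 2nd in the knockdown, or 4th over knockdown libraries 1 and 2.

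Plk1, the polo kinase of entry and spindle assembly, was at 588, 568 and 664 against 79.6, 97.0 and 49.2, a log2 change of -3.05 ± 0.28 (adjusted p = 3.5e-04). Aurka, the kinase of spindle poles, was at 367, 366 and 424 against 100.3, 92.0 and 135, a log2 change of -1.83 ± 0.20. All knockdown values of both genes lay below all control values, with library 3 lowest for Plk1 and highest for Aurka. Cdc25c, a phosphatase that removes the inhibitory phosphates from CDK1, was at 191, 152 and 146 against 19.9, 28.4 and 109.6. Its value in knockdown library 3 was 4.53 times the mean of the other 2 and close to the controls, and its log2 change of -2.00 ± 0.63 passed narrowly (adjusted p = 0.043). That call was lost when any 1 of the 5 other libraries was left out (adjusted p 0.101 to 0.132) and with edgeR (0.102), while without the third library the change was -2.71 (adjusted p = 8.8e-07). Exons of Cdc25c share 12.7% of their bases with Gm3550 on the opposite strand. Gm3550 was at 8.72, 13.9 and 22.8 in control and 2.49, 1.67 and 29.1 in the knockdown. Like Cdc25c, it was highest among the knockdown libraries in library 3, and its part in the values of Cdc25c was not tested.

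All 4 genes of the spindle checkpoint, which holds anaphase until every kinetochore is attached, fell, with a median of -2.68. Bub1, a kinetochore kinase, was at 408, 370.1 and 408 against 44.8, 47.7 and 49.2, a log2 change of -3.04 ± 0.16. Bub1b, which encodes BUBR1 of the mitotic checkpoint complex, was at 710.4, 749 and 724 against 104, 92.0 and 48.1, a log2 change of -3.22 ± 0.31. Ttk, the kinase MPS1 that starts the signal, was at 203, 201 and 223 against 49.7, 36.8 and 38.0, a log2 change of -2.31 ± 0.20. In these 3 genes the highest knockdown value was far under the lowest control value. Mad2l1, which encodes MAD2, the inhibitor of CDC20, changed least of the 4. Its mean over all 6 libraries was the highest of them, though in control Bub1b was higher. It was at 618, 572 and 578 against 283, 318 and 312, with no overlap and a log2 change of -0.95 ± 0.13 (adjusted p = 0.0016). A pseudogene, Gm42430, matches it at 95.4% over 454 bases.

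The chromosomal passenger complex corrects faulty attachments and guides cytokinesis, and all 4 of its genes fell, with a median of -1.69. Incenp, the scaffold, had the highest mean value, 1440.4, 1492 and 1332 against 588, 545 and 558, a log2 change of -1.33 ± 0.11 (adjusted p = 2.7e-04). Aurkb, its kinase, was at 514, 525 and 554 against 82.9, 70.3 and 57.0, a larger log2 change of -2.92 ± 0.19. In both genes the 3 knockdown libraries were close to each other. For Birc5 (survivin) and Cdca8 (borealin), which place the complex on the centromere, library 3 was higher than the other 2. Birc5 was at 524, 553 and 530.2 against 101, 93.7 and 221, a log2 change of -2.06 ± 0.35 (adjusted p = 0.0042). Cdca8 was at 352, 394 and 374 against 133, 139.7 and 269, a log2 change of -1.12 ± 0.30 (adjusted p = 0.025). The Cdca8 call was lost with any 1 other library left out (adjusted p 0.070 to 0.087) and with upper-quartile scaling (0.057), and without the third library the change was -1.44 (adjusted p = 5.3e-07).

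All 7 centromere and kinetochore genes fell, with a median of -2.32. Cenpf, a large coiled-coil protein of the outer kinetochore, had the highest mean value, 1193, 1345 and 1139 in control and 191, 199 and 196 in the knockdown, a log2 change of -2.64 ± 0.13 (adjusted p = 3.9e-05). The 3 knockdown libraries lay within a narrow band, as they did for Ndc80 and Nuf2. The NDC80 complex binds microtubule ends through the NDC80 and NUF2 subunits and is held to the kinetochore by SPC24 and SPC25. Ndc80 was at 281, 288 and 283 against 58.9, 59.4 and 62.6, a log2 change of -2.22 ± 0.15. Nuf2 was at 499, 503 and 475 against 70.5, 71.9 and 63.7, a log2 change of -2.82 ± 0.15. The inner pair of the complex was higher in library 3 than in the other 2 knockdown libraries, yet far under control. Spc24 was at 705, 685 and 697 against 46.4, 53.5 and 108, a log2 change of -3.41 ± 0.33, next after Ube2c in size among the members. Spc25 was at 380.3, 361 and 372 against 64.7, 61.9 and 98.4, a log2 change of -2.32 ± 0.22. In both genes the groups did not overlap. Cenpa, the histone H3 variant that marks the centromere, was at 744, 755 and 759 against 153, 141 and 289.5, a log2 change of -2.03 ± 0.29, with library 3 at 1.97 times the mean of the others and the control mean at 3.87 times the knockdown mean. Cenpe, a kinesin that carries chromosomes to the equator, was at 799, 772 and 748 against 152, 166 and 206, a log2 change of -2.15 ± 0.16.

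Of the 9 mitotic kinesins, 7 fell and 2 did not pass, with a median of -2.31. Without knockdown library 3, 8 fell and 1 rose. Kif11, whose promoter is shown above, was at 778, 793 and 757 against 145, 151 and 157, a log2 change of -2.35 ± 0.12 (adjusted p = 5.2e-05). Kif23, a motor of the central spindle, was at 429, 427 and 433 against 75.4, 92.0 and 91.7, a log2 change of -2.31 ± 0.16. Kif2c, which takes microtubules apart at the centromere, was at 393, 427 and 409 against 47.3, 51.9 and 60.4, a log2 change of -2.93 ± 0.17. These 3 genes had tight groups with no overlap. Kif4, a chromosome-bound motor that also limits the length of midzone microtubules, was at 451, 457 and 404 against 78.8, 67.8 and 57.0, a log2 change of -2.68 ± 0.18. Kif20b, a motor of late cytokinesis, was at 498, 539 and 424 against 172, 187 and 233, a log2 change of -1.30 ± 0.18. Kif22, which pushes chromosome arms away from the poles, was at 454, 525 and 506 against 174, 166 and 274, a log2 change of -1.31 ± 0.23. The falls of Kif20b and Kif22 were the smallest of the 7, and those of the other 5 were at least 4-fold. Kif4 shares 15.1% of its exonic bases with Pdzd11 on the opposite strand, which was also lower (-0.52 ± 0.11).

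Kif20a, a motor that brings Aurora B to the midzone, had the highest control mean of the kinesins and a value in knockdown library 3 far under the others. It was at 1148, 1106 and 1067 against 214, 210.0 and 49.2, a log2 change of -3.07 ± 0.58 (adjusted p = 0.0066), and -2.38 without the third library. Kif20a shares 29.3% of its exonic bases with Cdc23, on the opposite strand, which was at 2266, 2251 and 2193 against 2319.7, 2213 and 599 and was also lowest in the third knockdown library. The strand setting of the counting is not given in the sources used here, so reads from genes on opposite strands may not have been told apart.

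Kif15 and Kif18a did not pass. Kif15, a second motor that keeps poles apart, was at 258, 261 and 263 against 92.9, 87.8 and 454. Libraries 1 and 2 lay well under all controls and library 3, 5.02 times their mean, above all controls, and the log2 change of -0.75 ± 0.64 did not pass (adjusted p = 0.39), while without library 3 it was -1.52 (adjusted p = 8.1e-07). Kif18a, which shortens and steadies kinetochore microtubules, was the kinesin with the lowest values in control, 136, 119 and 111, and was at 158, 169.8 and 118 in the knockdown. The groups overlapped, with a log2 change of 0.27 ± 0.21 (adjusted p = 0.33). Without the third library Kif18a was the single member called higher, at 0.43 (adjusted p = 0.019).

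**Figure D3:**
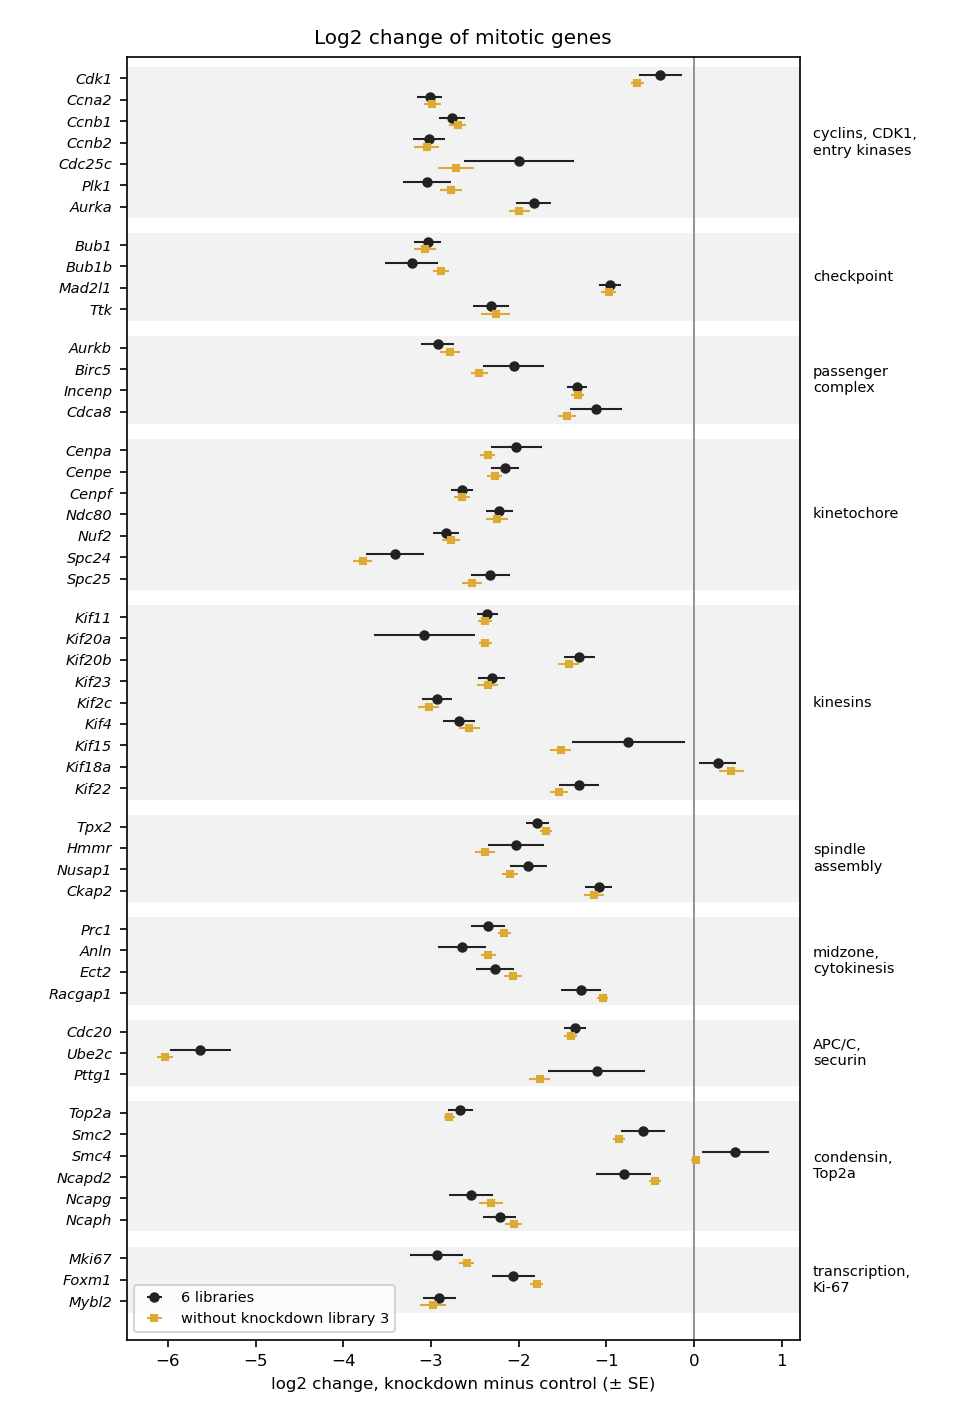
Log2 change, knockdown minus control, of each member with its standard error from limma, from all 6 libraries (black circles) and without knockdown library 3 (yellow squares). The squares of all but Kif18a and Smc4 lie left of 0, Ube2c lies far to the left at -5.63, and the long error bars of Cdc25c, Kif20a, Kif15 and Pttg1 shrink without that library.

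All 4 genes of spindle assembly fell, with a median of -1.84. Tpx2, which activates Aurora A and nucleates microtubules near chromosomes, had the highest mean value. It was at 1027, 1059.7 and 1064 against 314, 335 and 267, a log2 change of -1.78 ± 0.14 (adjusted p = 1.8e-04). Hmmr, a spindle-pole protein also known as a hyaluronan receptor, was at 464, 409 and 458 against 87.9, 80.3 and 176, a log2 change of -2.03 ± 0.32. Nusap1, which binds and bundles spindle microtubules, was at 569, 597 and 613 against 133, 143 and 214, a log2 change of -1.89 ± 0.21. For both, library 3 was the highest of the knockdown libraries and still well under the lowest control. Ckap2, a spindle-associated microtubule stabiliser, was at 536, 432 and 525 against 230.5, 218 and 253, a log2 change of -1.08 ± 0.15, the smallest of the 4.

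Midzone and cytokinesis genes also fell in 4 of 4 cases, with a median of -2.31, and here library 3 was the lowest knockdown library in each gene. Racgap1, part of the centralspindlin complex with KIF23, had the highest mean value. It was at 2400.4, 2639.8 and 2395 against 1188, 1216 and 721, a log2 change of -1.29 ± 0.23 (adjusted p = 0.0050), the smallest of this role. Prc1, which bundles the antiparallel microtubules of the midzone, was at 1044, 1046 and 966 against 219, 235 and 153, a log2 change of -2.35 ± 0.19. Ect2, the exchange factor that activates RhoA at the equator, was at 437, 491 and 463 against 108, 112 and 71.5, a log2 change of -2.27 ± 0.22. Anln, anillin, the scaffold of the contractile ring, was at 1462, 1497 and 1399 against 259, 312 and 153, a log2 change of -2.64 ± 0.27. In all 4 genes the groups did not overlap. Prc1 shares 11.1% of its exonic bases with Rccd1 on the opposite strand, which was also lower (-1.37 ± 0.17). Racgap1 and its partner Kif23 differed in the size of their falls: the control mean was 2.38 times the knockdown mean for Racgap1 and 4.98 times for Kif23, values given side by side with no test.

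Of the 3 genes acting with the anaphase-promoting complex, 2 fell (median -1.36), and 3 without knockdown library 3 (median -1.76). Among them Ube2c (GRCm38 chromosome 2, 164769898 to 164778822, plus strand) had the largest change of all members. It encodes the ubiquitin-conjugating enzyme that starts ubiquitin chains on securin and the cyclins. Its values were 4748, 4686 and 5434 in control and 68.8, 81.1 and 173 in the knockdown, a log2 change of -5.63 ± 0.35 (adjusted p = 9.1e-05), and -6.03 without the third library. Per kilobase of exon it stood 1st of the 51 in control and 15th in the knockdown, or 24th over knockdown libraries 1 and 2. Beside it in the genome lies Tnnc2, the fast troponin C of muscle, on the opposite strand, and 592 exonic bases, 22.8% of the exons of Ube2c, are shared. Tnnc2 was at 42145, 40264 and 46869.9 against 59.7, 41.0 and 77.1, a log2 change of -9.52 ± 0.24, and its part in the values of Ube2c was not tested. Cdc20, which brings substrates to the complex, was at 727, 712 and 768 against 282, 272 and 307, a log2 change of -1.36 ± 0.12 (adjusted p = 3.7e-04), with tight groups. Pttg1, securin, the inhibitor of separase, was at 281, 296 and 324 against 91.2, 84.5 and 342. Libraries 1 and 2 were under all controls and library 3 above all of them, a log2 change of -1.11 ± 0.55 that did not pass (adjusted p = 0.15). Without the third library it was -1.76 (adjusted p = 3.7e-07).

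Genes of condensin, the ring complex that compacts chromosomes, and Top2a fell in 3 of 6 cases, with a median of -1.51, and in 5 of 6 without knockdown library 3. The SMC2 and SMC4 subunits form the arms of both condensin I and condensin II, and NCAPD2, NCAPG and NCAPH belong to condensin I. Top2a fell from 4059, 4259 and 3823 to 604, 566 and 755, a log2 change of -2.67 ± 0.14 (adjusted p = 5.9e-05). Ncapg was at 329, 376 and 341 against 62.2, 77.0 and 42.5, a log2 change of -2.55 ± 0.25. Its exons share 13.4% of their bases with Lcorl on the opposite strand, which did not pass (-0.47 ± 0.18). Ncaph, the kleisin that closes the ring, was at 568, 654 and 611 against 146, 146 and 104, a log2 change of -2.22 ± 0.19. These 3 fell and the other 3 of the 6 did not pass.

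Smc4 (GRCm38 chromosome 3, 69004738 to 69034623, plus strand) had the highest mean value of the condensin genes and did not pass. It was at 2689, 2832 and 2811 in control and 2704, 2936 and 7228 in the knockdown, where libraries 1 and 2 lay at the control level and library 3 at 2.56 times their mean. Its log2 change was 0.47 ± 0.38 (adjusted p = 0.36), and 0.02 without the third library (adjusted p = 0.73), which made it the single member that passed in neither direction with either set. Smc2 was at 898, 921 and 919.7 against 484, 524 and 892, with library 3 just under the lowest control. Its log2 change of -0.58 ± 0.25 did not pass (adjusted p = 0.11), and without library 3 it was -0.86 (adjusted p = 1.2e-06). Ncapd2 was at 1419.7, 1549.8 and 1473 against 1137, 1043 and 516, a spread in the other direction, with library 3 lowest. Its groups did not overlap, but the log2 change of -0.80 ± 0.31 did not pass (adjusted p = 0.082), and without library 3 it was -0.44 (adjusted p = 1.2e-04).

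The transcription factors of the programme also fell, and all 3 genes of this role passed, with a median of -2.90. Mki67, which coats mitotic chromosomes, was at 2715, 2709 and 2276 against 415, 432 and 208, a log2 change of -2.93 ± 0.30 (adjusted p = 6.0e-04). Foxm1 was at 948, 980.1 and 923 against 277, 269 and 158, a log2 change of -2.06 ± 0.24. Mybl2, which encodes B-MYB, was at 323, 328 and 280.3 against 42.3, 35.1 and 44.7, a log2 change of -2.90 ± 0.19 (adjusted p = 1.0e-04). No knockdown value of these genes reached any control value, and library 3 was lowest for Mki67 and Foxm1. Mybl2 matches the pseudogene Gm3320 at 99.7% over 742 bases.

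Spread within groups was small in control and in the first 2 knockdown libraries, and larger once the third was included. The highest control value of a member was at most 1.30 times the lowest (median 1.09), and the higher of knockdown libraries 1 and 2 at most 1.43 times the lower (median 1.08). Over all 3 knockdown libraries the median was 1.53 and the maximum 5.51, for Cdc25c. Library 3 was over 1.5 times the mean of the other 2 in 15 members and under it by more than 1.5 times in 10, where 29.5% and 29.8% of all genes with values did so, and it lay within those limits in 26. The members raised in library 3 included Kif15, Cdc25c, Pttg1, Smc4, Ube2c, Birc5 and Spc24, and those lowered included Kif20a, Ncapd2, Bub1b and Mki67. Against the control mean, the median log2 change over members was -2.32, -2.22 and -2.22 in knockdown libraries 1, 2 and 3, so single members of the third library lay on both sides of the other 2 while the medians were alike.

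**Figure D4:**
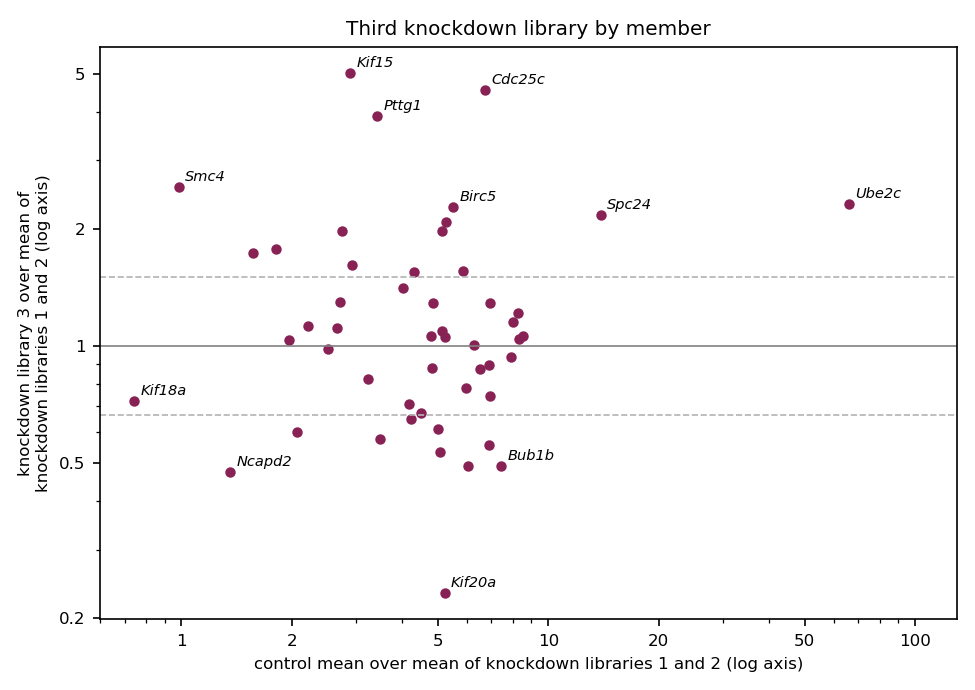
For each member, the value in knockdown library 3 over the mean of knockdown libraries 1 and 2 (vertical, log axis) against the control mean over that same mean (horizontal, log axis). Dashed lines mark 1.5 times up and down. Kif15 (5.02), Cdc25c (4.53) and Pttg1 (3.89) lie highest and Kif20a (0.232) lowest, and 26 members lie between the lines.

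Genes outside the 51 that work in the same structures were more often lower than higher. Of 119 other mitotic genes in the table, 63 fell, 10 rose and 46 did not pass, with a median log2 change of -0.61, where 23.5% of all genes tested were lower and 21.7% higher. Without the third knockdown library 82 were lower and 22 higher, where 39.9% and 38.6% of all genes were. Genes of the outer kinetochore and checkpoint fell in 9 of 16 cases (median -1.76; 13 lower and 1 higher without knockdown library 3), among them Kntc1, a subunit of the complex that brings dynein to kinetochores (-3.70 ± 0.17, adjusted p = 3.5e-05), and Sgo1, the protector of centromeric cohesion (-2.47 ± 0.18). Other spindle, kinesin and cytokinesis genes fell in 16 of 22 cases and 1 rose (median -2.10; 18 lower and 3 higher without it), among them Spag5 (-2.14 ± 0.13) and Ckap2l (-2.53 ± 0.15), which bind the spindle, while the microtubule-depolymerising kinesin Kif2a was higher (0.41 ± 0.11, adjusted p = 0.025). Among kinases, phosphatases and inhibitors of entry and exit, 13 of 18 fell and 1 rose, and without it 16 fell and 2 rose. The kinases Pbk and Melk fell, with log2 changes of -3.06 ± 0.18 and -1.85 ± 0.19, and Wee1, which holds CDK1 inactive, rose by 1.09 ± 0.24 (adjusted p = 0.012), from 370.5, 398 and 396 to 997, 986 and 580.2.

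In the inner kinetochore and centromere loading list 8 of 17 fell and 1 rose (median -0.58), and without knockdown library 3, 11 fell and 2 rose. Cenpn and Cenpu, of the network that sits on CENP-A chromatin, fell, with changes of -2.30 ± 0.20 and -1.94 ± 0.21, and Mis18a, of the CENP-A loading machinery, rose by 0.59 ± 0.15 (adjusted p = 0.020). In the anaphase-promoting complex list 6 of 17 fell and 3 rose (median -0.39), and without that library 9 fell and 5 rose (median -0.15). Espl1, which encodes separase, fell (-2.57 ± 0.22), the subunit Anapc7 was lower (-1.08 ± 0.13), and the subunits Anapc10 and Cdc26 were higher (1.56 ± 0.20 and 0.93 ± 0.28). Of 13 cohesin genes 5 fell and 2 rose (median -0.22), and without that library 6 fell and 5 rose (median -0.10). Esco2 and Cdca5 (sororin), which establish and keep cohesion, fell, with changes of -2.34 ± 0.27 and -2.49 ± 0.32. The cohesin subunits Stag2 and Smc1a rose by 0.53 ± 0.11 and 0.58 ± 0.14. Of 5 genes of condensin II and chromatin compaction, the histone methyltransferase Kmt5a (-1.29 ± 0.12) and the kleisin Ncaph2 (-0.66 ± 0.15) fell, and 4 of the 5 fell without that library. For comparison, 23.5% of all genes tested were lower and 21.7% higher, and 39.9% and 38.6% without that library. Beside these shares, the small counts of the anaphase-promoting complex and cohesin lists do not set those lists apart.

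Of 11 MuvB core genes and their partners in DREAM, 4 fell and 2 rose (median -0.32), and without knockdown library 3, 5 fell and 4 rose (median -0.13). Among all genes tested, 23.5% fell and 21.7% rose with 6 libraries, and 39.9% and 38.6% without that one, so these small counts do not set the list apart. E2f4, the repressor E2F of the complex, was at 3835, 4133 and 3982 in control and 1701, 1668 and 1032 in the knockdown (-1.48 ± 0.22, adjusted p = 0.0024), and Lin9, a MuvB subunit, changed by -0.76 ± 0.19. E2f5, a close relative of E2f4, was at 389, 388 and 425 against 1145, 1085 and 1023 and rose by 1.43 ± 0.12 (adjusted p = 2.5e-04), and Tfdp2, an E2F dimerisation partner, rose by 0.96 ± 0.23. The calls of Mis18a, Kif2a, Wee1, Cdc26, Stag2, Smc1a, Ncaph2, Lin9 and Tfdp2 were each lost with some 1 library left out. Among the 99 of the 119 genes with a promoter entry, a CHR-type match was found in 29 of the 49 that fell (59.2%). It was found in 19 of the 50 others (38.0%), against 32 of 42 members and 16.5% of the 10945 tested genes with an entry. The difference between these shares was not tested.

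**Figure D5:**
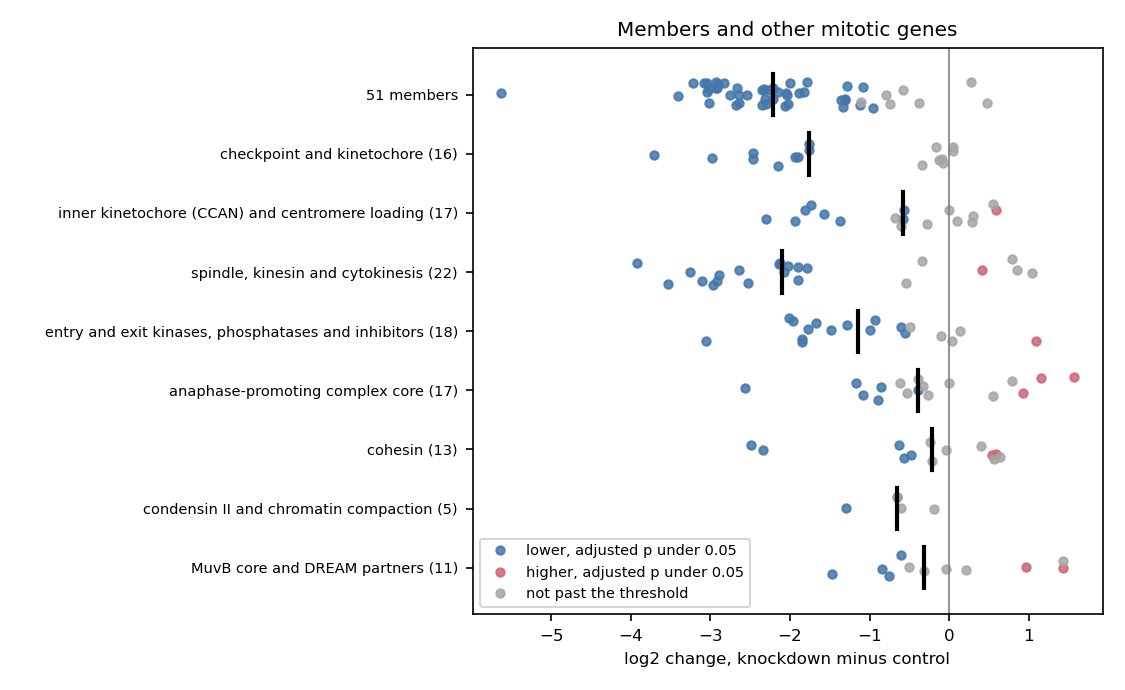
Log2 change, knockdown minus control, of the 51 members (top row) and of 119 other mitotic genes in 8 groups, 1 point per gene, with the number of genes in brackets and the median as a black bar. Medians run from -2.22 in the members and -2.10 in other spindle, kinesin and cytokinesis genes to -0.22 in cohesin.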

How the data were processed

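RNA of C2C12 cells was measured in 6 libraries, 3 per group, and the titles of the samples gave group and replicate number. TRIzol extraction and poly(A) selection are stated in the labels' protocols, and libraries were read in pairs of 150 bp on a HiSeq. The submitters' processing notes name Trimmomatic 0.36, Subread 1.5.2 with featureCounts, DESeq2 and GRCm38. Not given in the sources used here are aligner, annotation release and strand setting.

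The authors deposited 1 normalised signal per gene and library, a gene count divided by a size factor, called the normalised count here. Their table also held the log2 fold change and the p-value of their own comparison, per the file headers. Divided by what 1 read was worth in its library (0.829 to 1.26), 100% of values came out whole within 0.01 reads, so reads were recovered, 37346439 to 50329438 per library. Positions and exonic lengths came from GENCODE M21 (GRCm38), in which 16812 genes were found by identifier and 42 were not.

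The values as deposited are normalised and not whole reads, and the main test was limma 3.58.1 (R 4.3.3) on log2(value + 1). It used a mean-variance trend and neither covariates nor a block. Tests on the recovered reads were run as alternatives. The main test covered the 16245 genes that reached 10 in 3 or more libraries and was two-sided, with p-values adjusted after Benjamini and Hochberg (threshold 0.05). Log2 changes on this scale are too small for genes of low value. An exact two-sided permutation test of 3 against 3 libraries cannot go below 0.1. Values per kilobase were divided by exonic length. No pair of libraries agreed within sampling noise, so none was merged.

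The members and the lists were chosen with earlier results of these data known. By rule, every member was named, and from each list of other mitotic genes up to 2 higher and 2 lower genes with the smallest adjusted p. Values by library were set for the most abundant member of each role and those that did not pass; the other values by library, and the other genes named, were chosen after the values were seen. Alternatives were other filters, pseudocounts and scalings, limma without trend, a replicate block, each library left out, stricter thresholds, and, run on the recovered reads, DESeq2 1.42.0 and edgeR 4.0.16. edgeR without knockdown library 3 was added after seeing the data. No correction for overlapping or near-identical genes was made.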

Additional observations from a re-analysis of the deposited data

How the results depend on the processing

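Of the 51 members, 43 had the same call under all 17 alternatives that kept the threshold of 0.05, and 42 of these were lower. With a 2-fold minimum Mad2l1 was also lost, leaving 43 lower, and an adjusted p under 0.01 left 42. The others were Cdc25c and Cdca8, lower in the main analysis, and Cdk1, Kif15, Kif18a, Ncapd2, Pttg1 and Smc2, each past the threshold only without the third knockdown library, with limma or with edgeR. Cdc25c was also lost with upper-quartile scaling (adjusted p = 0.066, limma). Leaving out 1 library at a time gave 42 to 49 members lower and 0 to 1 higher, 49 to 82 other mitotic genes lower and 3 to 22 higher, and a members' median log2 change of -2.32 to -2.21. Over all genes it gave 2648 to 6485 lower and 2443 to 6269 higher, each highest without knockdown library 3. With that library left out, edgeR gave 6459 lower and 6489 higher genes, 1 member higher, 23 other mitotic genes higher and a members' median of -2.30. An adjusted p under 0.01 gave 2545 lower and 2283 higher genes and 3 other mitotic genes higher, and a 2-fold minimum gave 4 other mitotic genes higher. Upper-quartile scaling gave a members' median of -2.10, and the median of all genes was then 0.12, against 0.11 with edgeR; the cause of these shifts was not tested.

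Same-numbered libraries were not shown to be paired: their deviations from group means correlated at 0.02, 0.10 and 0.14, and control 2 correlated more with knockdown 1 (0.12). With a replicate block, 43 members were lower and 0 higher (Cdc25c had an adjusted p of 0.061, limma), 59 other mitotic genes were lower and 7 higher, 3301 genes were lower and 3010 higher, and the members' median was -2.22.

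Each group carries 1 hairpin, so hairpin and group cannot be told apart. Errors are wide where knockdown library 3 differs from the other 2. Reads of overlapping or near-identical genes were not separated. At least 24 reads stood behind each member value.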
